A study of Mus musculus with 9 samples.

Results

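miR-146a-5p and miR-146b-5p are the members of the miR-146 family in the epididymosomes of the mouse. They were taken as all entries of the deposited table whose names begin with miR-146a- or miR-146b-, which gave 2 of 358 miRNAs, and both passed the filter on low values described below. Their 3p arms had no entry there and were not analysed here. Epididymosomes, small membrane vesicles that the epididymal epithelium sheds into the lumen, had been collected from caput, corpus and cauda, the proximal, middle and distal segments that spermatozoa traverse in this order. All came from male inbred Swiss mice aged 8 weeks, with no treatment or genetic modification named in the labels. The segment is the only difference between the groups that the labels name. Each segment had 3 small RNA libraries, each made from RNA pooled from several mice, and replicates are therefore pools rather than single animals.

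A mature miRNA guides Argonaute proteins to target mRNAs largely through its seed, the bases near its 5′ end, and lowers their translation and stability. In leukocytes and epithelia the gene of miR-146a is switched on by NF-kB after stimulation of Toll-like or cytokine receptors. miR-146a in turn represses IRAK1 and TRAF6, signalling proteins downstream of the same receptors, and is a textbook brake on inflammatory signalling.

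The mature sequences from RefSeq (GRCm38.p6) show what the members share, with the seed, bases 2 to 8, in capitals.
miR-146a-5p: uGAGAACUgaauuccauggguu
miR-146b-5p: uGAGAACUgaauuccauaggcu
Both are 22 bases long and were identical at 20 of them. Counted from 1 at the 5′ end and written from miR-146a-5p to miR-146b-5p, the differences were G18A and U21C, both well outside the seed. Of the 1679 mature mouse miRNAs of the reference only 2 carried this seed, and these were the members themselves. Of the 358 miRNAs of the table, 299 were matched to a mature sequence by name, and of these again 2 had the seed.

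The hairpins from which they are cut differ more, and they are shown with the mature 5p arm in capitals because this arm alone has deposited values.
Mir146: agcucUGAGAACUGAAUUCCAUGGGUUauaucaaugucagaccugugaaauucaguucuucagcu
Mir146b: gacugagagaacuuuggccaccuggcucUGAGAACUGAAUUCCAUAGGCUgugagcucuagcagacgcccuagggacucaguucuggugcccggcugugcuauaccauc
The genes lie on different chromosomes of GRCm38. The hairpin of Mir146, which encodes miR-146a, spans chr11:43374397-43374461 on the minus strand and overlapped no other annotated gene. The nearest was the long non-coding RNA Gm12148, 11021 bases away on the plus strand, and the nearest protein-coding gene, Pttg1, was 45789 bases away. The hairpin of Mir146b spans chr19:46342762-46342870 on the plus strand. It lies within the protein-coding gene Mfsd13a of the same strand, inside the span of 1 of its transcripts and overlapping 0 of its exons, and is thus intronic. GGAG and CCCU, short motifs that have been tied to the loading of miRNAs into exosomes, were searched on the miRNA strand only. They were present nowhere in either of the 2 members, while 15 of the 299 matched miRNAs (5.02%) had one of them between the middle and the 3′ end.

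The deposited values are CPM, read counts divided by all reads that a library had on miRNAs and brought to the same total in every library. In all libraries the values were multiples of 1 read within 0.02 read, and the depth was read from these steps. It ranged from 1548581 to 11306605 reads and was higher in every caput library than in every corpus or cauda library. Since CPM are shares of a library, they also move with its most abundant miRNAs. The combined share of miR-10a-5p and miR-10b-5p lay between 50.5% and 71.3% for the caput, 50.3% and 53.2% for the corpus, and 33.2% and 34.5% for the cauda. Another abundant miRNA, miR-143-3p, rose instead. It had 49777 to 88072 CPM in the caput, 87930 to 120674 CPM in the corpus and 287084 to 352106 CPM in the cauda. The second caput library had the highest combined share of miR-10a-5p and miR-10b-5p. Trimmed mean scaling (TMM), which removes the pull of a few dominant miRNAs, gave this library a factor of 0.478, the lowest of the 9 libraries. Results that rest on this library are given with and without it.

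**Figure D1:**
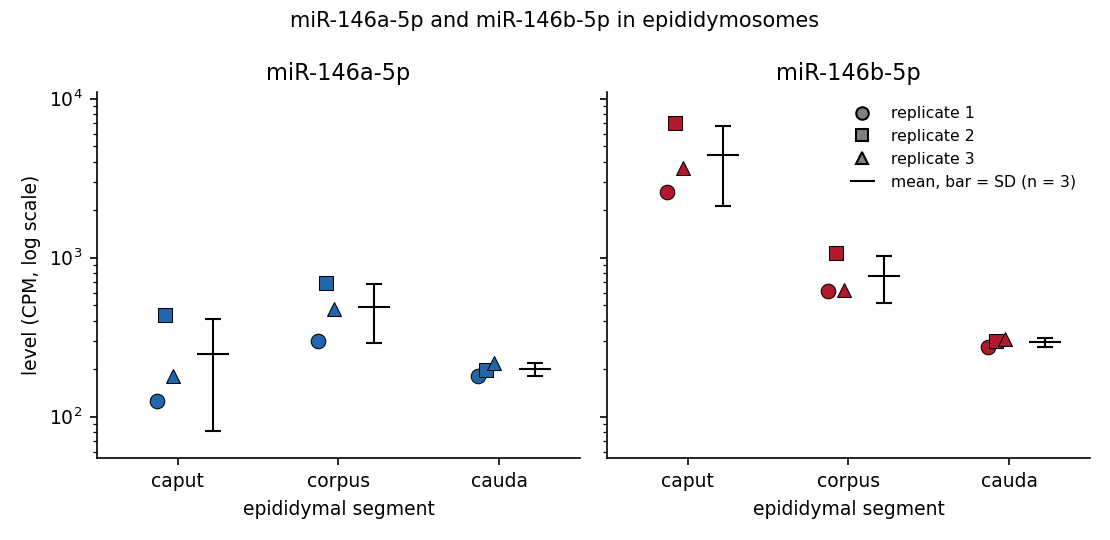
Accumulation of miR-146a-5p and miR-146b-5p in each of the 9 libraries, in CPM on a log scale, for caput, corpus and cauda epididymosomes, with the replicates as symbols and the mean and SD of each segment beside them (n = 3). The caput libraries of miR-146b-5p lie between 2566 and 7032 CPM, above all its corpus and cauda libraries, while those of miR-146a-5p, at 125 to 436 CPM, overlap with both other segments.

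miR-146b-5p fell along the epididymis, from the caput through the corpus to the cauda. It had 2566, 7032 and 3679 CPM in the 3 caput libraries, 617, 1067 and 629.6 CPM in those of the corpus, and 273, 298 and 306 CPM in those of the cauda. No library of one segment overlapped with those of another: the lowest caput library was above the highest corpus library, and the lowest corpus library above the highest cauda library. The means were 4426 ± 2324 CPM in the caput, 771 ± 256 CPM in the corpus and 293 ± 17.3 CPM in the cauda (SD, n = 3). Among the 358 miRNAs, ordered by the mean of each segment, it went from the 20th place in the caput to the 54th in the corpus and the 100th in the cauda. Between 547 and 58183 reads lay behind each value. Within the caput the highest library had 2.74 times the level of the lowest, against 1.73 times in the corpus and 1.12 times in the cauda.

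Differences between segments were tested with limma on log2(CPM + 1) over all miRNAs that averaged 10 CPM or more in a segment compared, and a miRNA was called when its Benjamini-Hochberg adjusted p was under 0.05 and its fold change 2 or more. From caput to corpus, miR-146b-5p decreased by 2.44 on this log2 scale (SE 0.40, limma adjusted p = 0.000487), a 5.42-fold drop with a 95% interval of 3.01 to 9.77. It was among 11 of 321 tested miRNAs called lower in the corpus, or 3.43%, with 22.4% called in either direction and 34.9% without overlap between the libraries. From corpus to cauda it decreased by a further 1.35 (SE 0.40, limma adjusted p = 0.0286), or 2.54-fold (1.41 to 4.58). Here 4.97% of 342 miRNAs were called lower, 19.0% were called in all and 46.2% did not overlap. This second step was no longer called without the second corpus library, where it decreased by 1.09 (limma adjusted p = 0.150), nor without the first or the second cauda library (adjusted p = 0.0840 and 0.0762), nor with limma-voom on the recovered reads (adjusted p = 0.0654).

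Over the whole tract, from caput to cauda, miR-146b-5p decreased by 3.79 (SE 0.40, limma adjusted p = 1.93e-06), which is 13.8-fold with a 95% interval of 7.66 to 24.9. Of 349 tested miRNAs, 10.3% were called lower in the cauda, 49.0% were called in either direction and 54.2% did not overlap. Without the second caput library the decrease was 10.5-fold (limma adjusted p = 3.54e-05), with 12.5% of all tested miRNAs called lower. With TMM scaling it was 22.1-fold (limma adjusted p = 3.48e-05), with 20.3% called lower. The limma F test over the 3 segments gave an adjusted p of 6.29e-06, in a table where it called 48.9% of 358 miRNAs.

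miR-146a-5p, the member best known from inflammation, followed another course. Its levels were 125, 436 and 179 CPM for the caput libraries, 297, 687 and 474 CPM for those of the corpus, and 181, 196 and 218 CPM for those of the cauda. The corpus libraries were all above the cauda libraries, whereas the caput libraries spanned a range that overlapped with both other segments. The means were 247 ± 166 CPM in the caput, 486 ± 195 CPM in the corpus and 198 ± 18.7 CPM in the cauda (SD, n = 3). By its mean it stood at the 87th place of the 358 miRNAs in the caput, the 74th in the corpus and the 111th in the cauda. Between 362 and 3608 reads lay behind each value. As with miR-146b-5p, the highest and the lowest library were farther apart in the caput, at 3.49 times, than in the corpus, at 2.31 times, or the cauda, at 1.21 times.

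None of the 3 comparisons between segments was called for miR-146a-5p. From caput to corpus the difference was 1.10 on the log2(CPM + 1) scale (SE 0.47, 95% interval 0.10 to 2.10, limma adjusted p = 0.106). From corpus to cauda it was -1.21 (SE 0.47, 95% interval -2.21 to -0.21, limma adjusted p = 0.0860), and from caput to cauda -0.11 (SE 0.47, 95% interval -1.11 to 0.89, limma adjusted p = 0.857). Neither the test over all segments (limma F test, adjusted p = 0.0722) nor the interval from caput to cauda, which allows more than a fold change of 2 in one direction, shows that the levels were alike. These calls changed with the libraries and the scaling. Without the second caput library, the corpus was above the caput by 1.61 (3.06-fold, limma adjusted p = 0.0158), where 13.2% of all tested miRNAs were called higher. The corpus to cauda difference stayed at -1.21 (limma adjusted p = 0.0220), where 6.73% were called lower, and both were called. The difference from caput to cauda then turned to 0.40 (limma adjusted p = 0.408). Without the second corpus library, the corpus to cauda difference was -0.92 (limma adjusted p = 0.329). With TMM scaling of all 9 libraries the caput to cauda difference was -0.79 (1.73-fold, limma adjusted p = 0.260), and the caput to corpus difference was 0.52 (limma adjusted p = 0.532), and the scaled level in the second caput library was 913 CPM beside 166 and 154 CPM in the other two.

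**Figure D2:**
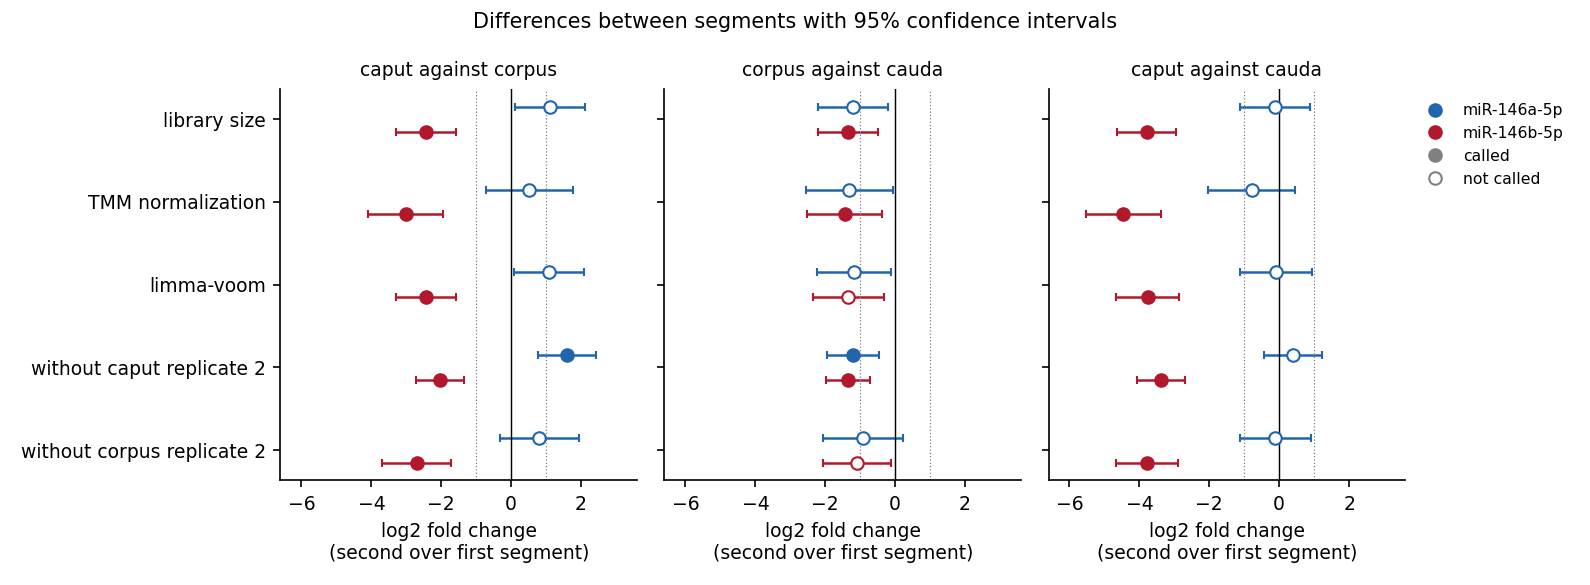
Fitted log2 differences in log2(CPM + 1) between segments for both members, with 95% intervals, under library size scaling, TMM scaling, limma-voom, and without the second caput or the second corpus library, with called differences as filled points and a fold change of 2 as dotted lines. For miR-146b-5p all intervals lie below 0, and the caput to cauda difference is -3.79 under library size scaling, while for miR-146a-5p the interval includes or leaves 0 depending on the setting.

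A difference was also read against the median of all tested miRNAs, since the latter moved with the scaling. That median was 0.47 from caput to corpus, 0.18 from corpus to cauda and 0.81 from caput to cauda with library size scaling, and -0.09, 0.08 and 0.13 with TMM scaling. The direction of the calls moved with it. Calls from caput to corpus comprised 61 higher and 11 lower miRNAs with library size scaling and 42 higher and 49 lower with TMM scaling, those from corpus to cauda 48 and 17 against 56 and 34, and those from caput to cauda 135 and 36 against 87 and 71.

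The place of a miRNA could hardly change with this choice, because a scaling moves all log2 differences of a comparison by nearly the same amount. Ordered by log2 difference, miR-146b-5p was the 2nd lowest of 321 miRNAs from caput to corpus, the 16th lowest of 342 from corpus to cauda and the 3rd lowest of 349 from caput to cauda, in both scalings. Relative to the median its difference from caput to cauda was -4.60 in either scaling. miR-146a-5p lay 0.63 above the median from caput to corpus with library size scaling, and 1.39 below it from corpus to cauda. From caput to cauda it was 0.92 below the median, at the 92nd place from the lowest of 349.

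**Figure D3:**
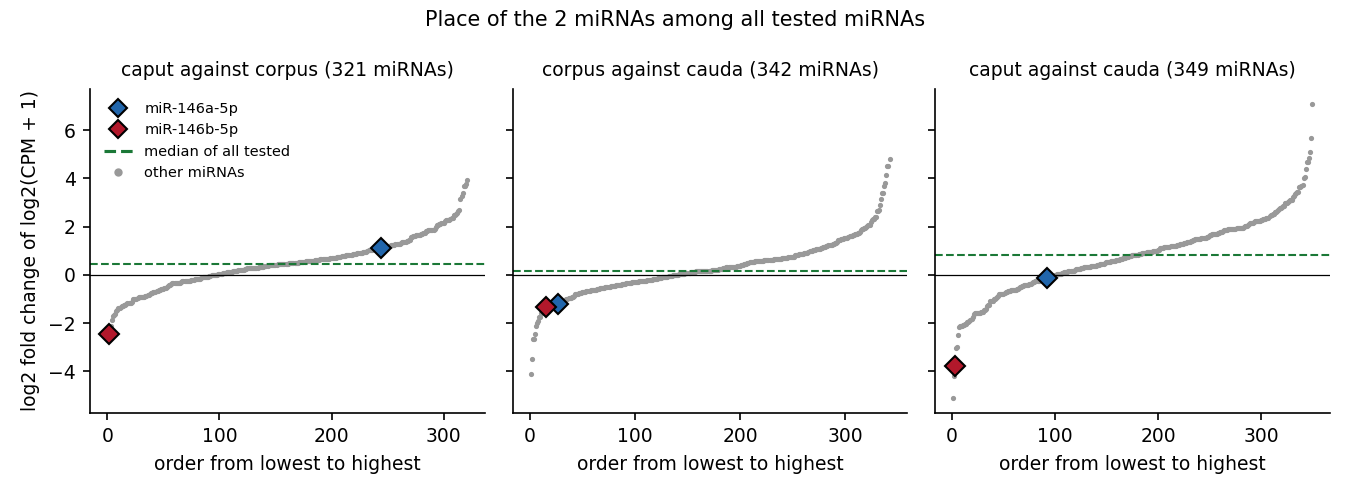
Log2 differences of all tested miRNAs in each comparison, in ascending order, with miR-146a-5p and miR-146b-5p as diamonds and the median of all as a dashed line. miR-146b-5p sits at the lower end in each, as the 2nd of 321, the 16th of 342 and the 3rd of 349, whereas miR-146a-5p is the 78th from the top of 321 between caput and corpus and the 27th from the bottom of 342 between corpus and cauda.

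The ratio of the members within a library is free of any scaling. miR-146b-5p had 20.6, 16.1 and 20.5 times the level of miR-146a-5p in the caput libraries, 2.08, 1.55 and 1.33 times in those of the corpus, and 1.51, 1.52 and 1.41 times in those of the cauda. The caput stood apart from both distal segments, and corpus and cauda overlapped. miR-146b-5p had more reads than miR-146a-5p in 9 of 9 libraries. The mean log2 ratio, with 1 CPM added to each level, was 1.83 (exact two-sided sign-flip permutation test, p = 0.00391, the smallest that 9 libraries allow, and 0.00781 adjusted over the 2 tests of the ratio). Both have 22 bases, so length does not enter this comparison. It compares reads, and whether the libraries recovered both miRNAs equally well was not tested.

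The ratio differed among the segments. Its log2 value was 4.24 ± 0.20 in caput, 0.70 ± 0.33 in corpus and 0.56 ± 0.06 in cauda epididymosomes (SD, n = 3), and the exact permutation test over the 280 divisions of the libraries into 3 groups of 3 gave p = 0.025, also after adjustment over the 2 tests. Between caput and corpus the ratio fell 11.6-fold, a log2 difference of -3.54, and between caput and cauda the difference was -3.67, or 12.8-fold. With 3 libraries against 3 the exact permutation test cannot go below p = 0.1, the value both these comparisons had (0.15 adjusted over the 3 pairs). Between corpus and cauda the difference was -0.14, or 1.10-fold, with overlapping libraries and an exact permutation p of 0.7. The second caput library, which had the highest levels of both members, had the lowest ratio of its segment.

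**Figure D4:**
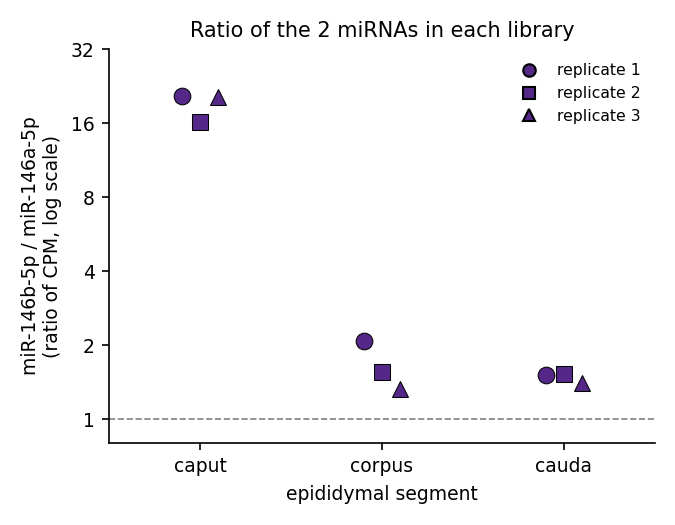
Ratio of miR-146b-5p to miR-146a-5p within each of the 9 libraries, on a log scale, by segment. The 3 caput libraries lie between 16.1 and 20.6 and the corpus and cauda libraries between 1.33 and 2.08.

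How reads with a mismatch were assigned between the near-identical members is not given in the sources used here, so the level of the rarer member is the less certain one. In the caput, miR-146a-5p reached 4.86%, 6.20% and 4.88% of miR-146b-5p. If a fixed share of miR-146b-5p reads had been counted as miR-146a-5p in every library, that share could not exceed 4.86%, the lowest of the 9 libraries. At this limit such reads would make up 78.4% to 100% of the miR-146a-5p reads in the caput, 6.46% to 10.1% in the corpus and 6.83% to 7.41% in the cauda. Whether reads were shared was not tested. Neither was a share that varied between libraries, nor reads moved the other way, which these limits do not cover.

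If each read was counted once, the sum of both members does not depend on how their reads were split. A read that fits both and was counted for each would enter the sum 2 times, which was not tested. The sum came to 2691, 7468 and 3859 CPM for the caput, 915, 1754 and 1104 CPM for the corpus, and 454, 494 and 525 CPM for the cauda, without overlap between segments. Mean sums were 4673 ± 2490, 1257 ± 440 and 491 ± 35.3 CPM (SD, n = 3). miR-146b-5p supplied 94.2% to 95.4% of this sum in the caput, 57.1% to 67.5% in the corpus and 58.4% to 60.4% in the cauda. The carriers of the miR-146 seed were thus almost entirely miR-146b-5p in the caput and a mixture further along.

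Within the caput and the corpus, the same library was the highest for both members. In the second caput library miR-146a-5p was 1.54 and miR-146b-5p 1.19 above the mean of the other caput libraries on the log2(CPM + 1) scale, the 2nd and 3rd highest differences of 358 miRNAs. The median of all miRNAs in that library was -0.87, and 34 of 358 were above 0. In the second corpus library the members were 0.87 and 0.77 higher than the mean of the other corpus libraries, at the 26th and 39th place, where the median of all was 0.07. Over the 9 libraries the deviations of the members from their segment means had a Pearson correlation of 0.95, while their levels had one of 0.11. These are descriptions of points that share library and depth. Whether the members also shared reads, above all in the caput, was not tested.

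The 5 miRNAs whose log2(CPM + 1) profile over the 9 libraries was most like that of miR-146b-5p were miR-183-5p (Pearson r = 0.93), miR-191-5p (0.93), miR-10a-5p (0.92), miR-182-5p (0.91) and miR-148a-5p (0.91). All 5 had their highest mean in the caput and their lowest in the cauda. miR-183-5p, for instance, had mean levels of 1892, 1122 and 685 CPM, a shallower gradient than that of miR-146b-5p. The profiles nearest to miR-146a-5p were less similar, namely those of miR-677-3p (0.76), miR-7033-5p (0.74), miR-3535 (0.71), miR-690 (0.70) and miR-135b-5p (0.69). Their means were highest in the corpus, as for miR-690 with 441, 1003 and 526 CPM. Neither member was near the other: miR-146a-5p was 84th of 357 in likeness to miR-146b-5p, and miR-146b-5p was 102nd in likeness to miR-146a-5p.

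Of 14 further miRNAs linked to innate immunity and NF-kB, 12 were in the table, and they were called in both directions. From caput to cauda 3 rose, 3 fell and 6 were not called, with a median log2 difference of 0.17 beside 0.81 for all tested miRNAs, of which 38.7% rose and 10.3% fell. miR-9-5p, which targets the NF-kB subunit p50 mRNA, fell with miR-146b-5p, from 249 ± 82.3 CPM in the caput to 38.4 ± 5.31 in the corpus and 31.9 ± 16.2 in the cauda (log2 difference over the tract -3.00, limma adjusted p = 0.000108). miR-125a-5p and miR-99b-5p, which are made from one cluster, also fell from caput to cauda, by 1.57 (limma adjusted p = 0.00148) and 1.07 (adjusted p = 0.0065). The opposite direction was taken by miR-155-5p, which like miR-146a is induced in activated leukocytes but promotes inflammation. It rose from 2.30 ± 1.26 CPM in the caput to 13.0 ± 2.42 CPM in the cauda (log2 difference 2.16, limma adjusted p = 0.0018). Since miR-155-5p averaged 10 CPM or more in the cauda alone, the filter admitted it to comparisons only through its level there. miR-223-3p, a granulocyte miRNA, rose by 1.82 (limma adjusted p = 0.00423), and let-7i-5p, which targets Toll-like receptor 4, by 1.49 (adjusted p = 0.00238), but the latter was not called with TMM scaling. With that scaling 2 of the list rose and 5 fell, with a median of -0.50 beside 0.13 for all tested miRNAs, of which 24.9% rose and 20.3% fell.

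In the shorter steps fewer of this list were called. From caput to corpus 1 of the 11 tested rose, let-7i-5p, and 1 fell, miR-9-5p, and the median was 0.17 beside 0.47 for all. Only 1 of them was called with TMM scaling, beside 28.3% of all tested miRNAs, and likewise 1 without the second caput library, beside 21.8%. From corpus to cauda miR-155-5p rose, while miR-125a-5p and miR-187-3p, an interleukin-10-induced miRNA of monocytes, fell, and the median of the 12 was -0.19 beside 0.18 for all. The rise of miR-155-5p in this step was not called with limma-voom, where 0 rose, 2 fell and 4 had an unadjusted p under 0.05. Beside these 3 of 12 calls 14.0% of all tested miRNAs rose and 4.97% fell, and beside the 2 of 11 in the first step 19.0% rose and 3.43% fell.

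**Figure D5:**
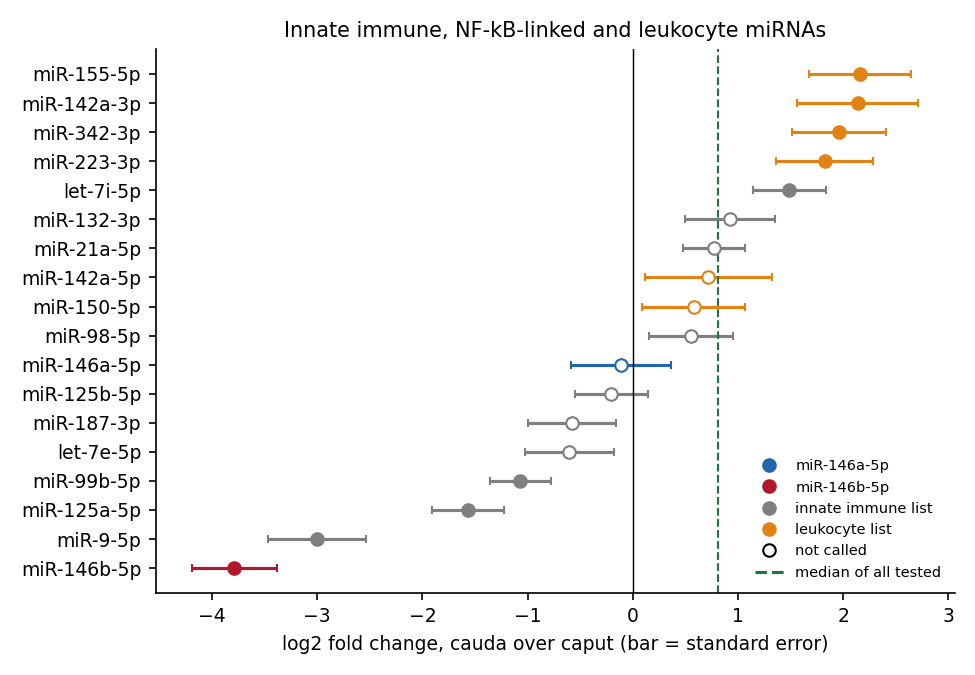
Log2 differences from caput to cauda of the miRNAs linked to innate immunity and NF-kB (grey) and of the leukocyte miRNAs (orange, with miR-155-5p and miR-223-3p, which are on both lists), beside both members, with SE bars, called differences as filled points and the median of all tested miRNAs as a dashed line. The 12 innate immune miRNAs have a median of 0.17 and the 6 leukocyte miRNAs one of 1.89, both above the -3.79 of miR-146b-5p.

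Since leukocytes make miR-146a and epididymal fluid can hold other cells and their vesicles, miRNAs typical of other cell types were set beside the members. Of 7 leukocyte miRNAs 6 were in the table and none was at 0 in any library. Their summed level was 250 to 558 CPM in the caput, 567 to 1202 CPM in the corpus and 486 to 1720 CPM in the cauda. The caput libraries lay below those of the corpus but overlapped with those of the cauda. By the segment means the largest part of this sum was miR-142a-5p, with 250, 632 and 539 CPM. This miRNA was called in no comparison with library size or TMM scaling. The part of leukocytes in the levels of miR-146 was not tested. From caput to cauda 4 of 6 rose, miR-142a-3p, miR-155-5p, miR-223-3p and miR-342-3p, beside 38.7% of all tested miRNAs. Among them miR-155-5p averaged 10 CPM or more in the cauda alone and was tested only through its level there. From corpus to cauda 2 of 6 rose, beside 14.0% of all, but none of these 2 was called with limma-voom on the recovered reads, where 2 had an unadjusted p under 0.05. From caput to corpus limma called 0 of 5 tested, beside 22.4% of all tested miRNAs. Of the 5, 3 had an unadjusted p under 0.05, and limma-voom called 0 as well. In these samples of many vesicles, fewer vesicles of a kind and less miRNA in each cannot be told apart.

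The other lists moved along the tract too, and their part in the levels of miR-146 was not tested. The 6 epithelial miRNAs of the miR-200 family and miR-205-5p, the markers of the cells that shed epididymosomes, summed to 21864 to 33624 CPM in the caput, 73871 to 85321 CPM in the corpus and 46003 to 62093 CPM in the cauda, and 1 of 6 was called from caput to cauda, miR-141-3p, which rose (38.7% of all tested miRNAs did). With TMM scaling the calls changed, while the directions of miR-141-3p and miR-200b-3p stayed. miR-141-3p, at 0.49, was not called (limma adjusted p = 0.113). miR-200b-3p, at -0.50 with library size scaling, was then called lower, at -1.18 (limma adjusted p = 0.00555). The largest part of the epithelial sum was miR-141-3p, with means of 17882, 65694 and 40435 CPM along the tract. Smooth muscle miRNAs (4 of 4 listed) went from 50115 to 88995 CPM in the caput to 291676 to 354786 CPM in the cauda, red blood cell miRNAs (5 of 7) from 223 to 848 CPM to 3029.6 to 4365 CPM, striated muscle miRNAs (3 of 4) from 52.5 to 184 CPM to 1249 to 3706 CPM and germ cell miRNAs (9 of 9) from 294 to 1020.4 CPM to 2017 to 2421 CPM. The red blood cell sum includes miR-486a-5p and miR-486b-5p, with near-equal means of 1749 and 1743 CPM in the cauda. It may thus hold the same reads more than once, which was not tested. In all 4 of these lists every cauda library was above every caput library. Of all tested miRNAs taken singly, 54.2% did not overlap between these segments, and the median log2 difference was 0.81. Called higher in the cauda were 4 smooth muscle, 5 red blood cell, 3 striated muscle and 9 germ cell miRNAs, beside 38.7% of all tested. With TMM scaling these were 2, 3, 3 and 6, beside 24.9% of all tested. Among them miR-144-3p, miR-486a-3p, miR-1a-3p, miR-208b-3p, miR-743a-3p and miR-883a-3p averaged 10 CPM or more in the cauda but not in the caput. Their level in the cauda alone admitted them to this comparison, so the filter favoured a rise.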

How the data were processed

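The authors assigned reads to known mature miRNAs by the quantification step of miRDeep2, after screening with cutadapt and Bowtie 1.1.1 (CASAVA 1.8.2 is also named in the submitters' processing notes), and normalised by library size. limma is among the tools they name for comparisons. The deposited values are CPM, and 0 columns were left unmapped. Genome build and miRBase release are not given in the sources used here.

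Groups were taken from the labels. limma 3.58.1 (R 4.3.3; lmFit, eBayes with trend) was fitted to log2(CPM + 1) of all 9 libraries with segment as the factor, and Benjamini-Hochberg adjustment covered all miRNAs that averaged 10 CPM or more in a segment compared. Ratios were tested by exact permutation. TMM factors were computed from the recovered reads. Scripts were tested on simulated data. Alternatives were other scalings, pseudocounts (0.1 and 10) and filters, limma-voom, the replicate block and each library left out. Named miRNAs are mainly both members, their 5 nearest profiles and called members of the immune and leukocyte lists. The members and lists were chosen with earlier results of these data known. Depth was 1548581 to 11306605 reads, and 3 reads correspond to 0.265 to 1.94 CPM. Such limits cover counting error only. p-values measure the spread between pools.

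The same-numbered libraries of different segments correlated between -0.211 and 0.411 in their deviations from the segment means, and were not treated as pairs. Sequences are from RefSeq (GRCm38.p6) and gene models from GENCODE M21, read by the hairpin's position in that build. RT-qPCR and the sperm and epithelial cell libraries were not analysed here.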

Additional observations from a re-analysis of the deposited data

How the results depend on the processing

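For miR-146b-5p, the decreases from caput to corpus and from caput to cauda kept their direction and call in 23 of 23 alternatives, at -3.26 to -2.04 and -4.51 to -3.39 on the log2 scale, and so did the test over all segments in 22 of 22. Its decrease from corpus to cauda kept its direction in 23 and its call in 17. It was -1.34 (adjusted p = 0.0654) with limma-voom on the recovered reads, -1.45 (adjusted p = 0.132) with limma-voom and TMM scaling and -1.20 (adjusted p = 0.161) without corpus replicate 2 and with TMM scaling, and leaving out 1 library gave -1.48 to -1.09. For miR-146a-5p, the caput to corpus difference was 0.71 to 1.61 with 1 library left out and 1.46 (adjusted p = 0.0117) without caput replicate 2 and with TMM scaling. Its corpus to cauda difference was -1.52 to -0.92 with 1 library left out, and was called at -1.21 in the 6 compared libraries alone (adjusted p = 0.0212), and at -1.33 (adjusted p = 0.00774) without caput replicate 2 and with TMM scaling. The caput to cauda difference turned from -0.11 to 0.40 without caput replicate 2, and to 0.13 with TMM scaling besides, over a range of -0.50 to 0.40 with 1 library left out. With all libraries it was -0.79 (1.73-fold) with TMM scaling and -0.83 (1.78-fold) with median-of-ratios scaling, and was not called. The test over all segments had an adjusted p of 0.00956 to 0.327 with 1 library left out and of 0.00556 without caput replicate 2 and with TMM scaling. The innate immune list had 1 call from caput to corpus with TMM scaling, or without caput replicate 2, against 2. Of all tested miRNAs 28.3%, 21.8% and 22.4% were called in these settings. The ratio tests kept their call in 11 of 11 alternatives. Causes were not tested. The combinations with TMM scaling and the lists without caput replicate 2 were chosen after seeing the data.

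Whether replicate numbers mark pairs is unclear: 6 of 9 same-numbered correlations exceeded 0.1, and a library correlated best with its own number in 10 of 18 cases. With the replicate block, miR-146a-5p was called from corpus to cauda at -1.21 (adjusted p = 0.0484) and over all segments (adjusted p = 0.0385), but neither was called with the block and TMM scaling (adjusted p = 0.0653 and 0.0912). No other call of the members changed, and calls over all miRNAs went from 72, 65 and 171 to 83, 73 and 180. The 2 planned count-model tests were not run, because the table has too few low values for the reads recovered from CPM to be accepted as counts. Depth limits little here, since each value of a member had at least 362 reads, and 3 libraries per segment limit more.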
